A study of Mus musculus with 12 samples.

Results

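The integrated stress response and amino acid genes are a list of 36 mouse genes chosen by name: the transcription factors ATF4 and CHOP with their partners and targets, amino acid transporters, and enzymes that make serine, asparagine, proline and other amino acids. Of the 36, 34 had a probe set assigned to that gene alone, with 82 probe sets in all. Pycr1 and Gdf15 had none here. Chac1 and Vldlr lay under the minimum mean signal of 50 in all 4 conditions, with means of 40.2 to 46.9 and of 18.8 to 22.0. This left 32 members among the 12071 genes tested, out of 18194 genes with a probe set. The cells were BV-2 microglia, an immortalised mouse microglial line, and they were left untreated (control) or received 50 µM luteolin, a flavonoid of food plants, 50 ng/ml LPS, the endotoxin of Gram-negative bacteria, or luteolin + LPS for 24 h. Each condition had 3 arrays, numbered 1 to 3, and the arrays come from 3 independent stimulation experiments by the published description. The labels give only a replicate number and do not tie it to an experiment, and the p-values measure the spread between repeats of 1 cell line. The labels name BV-2 cells throughout, except that the extraction protocol names PUER cells.

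In the integrated stress response, 4 kinases that sense amino acid shortage, unfolded proteins, double-stranded RNA or heme deficiency phosphorylate the translation factor eIF2. Most protein synthesis then slows, while the mRNA of ATF4 is translated better. ATF4 activates genes for amino acid uptake and synthesis and for tRNA charging. It also activates CHOP (Ddit3), Trib3 and Nupr1, which are known from prolonged stress and cell death, and Ppp1r15a, whose product GADD34 removes the phosphate from eIF2 again. The arrays measured mRNA, so neither eIF2 phosphorylation nor ATF4 protein is known from them.

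The arrays were alike in their overall signal. Their medians ran from 52.2 to 56.4, and log2 signals of arrays of the same condition correlated with r of 0.978 to 0.996. As a check of the treatment, Il6, a cytokine that LPS induces, rose with LPS by 7.18 on the log2 scale (standard error 0.58, adjusted p = 0.000236), and Nos2 and Hmox1 rose by 2.12 and 1.97. The call of Hmox1 was lost in the fit of the groups compared (adjusted p = 0.121) and without control replicate 3, any 1 luteolin array or any 1 LPS array (0.0515 to 0.102). Gclm, the modifier subunit of glutamate-cysteine ligase, had 0.94 with LPS (adjusted p = 0.266). None of these 4 genes passed the test in a luteolin contrast without the block, and with it Nos2 was lower and Gclm higher in the mean luteolin effect. With the block both also passed in luteolin + LPS versus LPS, Nos2 at -1.54 (adjusted p = 0.0312) and Gclm at 1.47 (0.0274). Of 10 microglia and macrophage markers, 8 had mean signals of 279 or more, Aif1 had 59.8 to 224, and Cx3cr1, a receptor of brain microglia, had 43.7 to 54.6, which is about the array median. With the replicate block Tyrobp fell with LPS by 0.53 on the log2 scale, Aif1 fell by 1.90 in luteolin + LPS versus LPS and Spi1 rose by 0.39 in the mean luteolin effect, and their part in the results was not tested. Of 17 markers of neurons, astrocytes, oligodendrocytes and fibroblasts, only Rbfox3 had a mean over 100, at 193 to 214. The signal minimum left 6 of the 17 to be tested, and none of these passed the test in any comparison.

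With luteolin, 2 stress regulators of this list fell, and no gene of amino acid synthesis or uptake passed the test. The contrast used for this was the mean of the luteolin effects in resting and LPS-treated microglia, which draws on all 12 arrays. In it, Ddit3 was 5.66-fold and Nupr1 3.42-fold lower, and Trib3 and Ppp1r15a also passed the test once the replicate number was added as a block. So 2 of 32 members fell and 0 rose, against a background of 1.92% lower and 1.16% higher among all genes tested. With the replicate block 4 of 32 fell and 0 rose, against 6.22% and 3.89%. Of these 4, Ppp1r15a did not pass with the block when luteolin + LPS replicate 2 was left out. The members were chosen with earlier results of these data known, so these counts describe the list and are no test of it. The median log2 fold change was -0.02 over the 32 members and 0.01 over all genes tested. A gene was called at an adjusted p under 0.05 (limma, Benjamini-Hochberg over all genes tested). In these cultures a fall in signal can come from fewer cells with the mRNA or from less mRNA per cell, which cannot be told apart.

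Ddit3 encodes CHOP, the stress-induced transcription factor that favours cell death. It had signals of 5166, 5253 and 5235 on the control arrays and of 2278, 511 and 682 on the luteolin arrays. It had 9528, 10201 and 12197 on the LPS arrays and 4921, 473 and 2761 on the luteolin + LPS arrays. Every array with luteolin lay below every array of the same state without it, and arrays 1 of both luteolin conditions kept the highest signals. The mean log2 fold change over both states was -2.50 (standard error 0.52, adjusted p = 0.0324, 0.0114 with the replicate block). Within replicate numbers 1, 2 and 3 it was -1.07, -3.90 and -2.54. Without luteolin + LPS replicate 2, the array with the lowest signal, it was -2.01 with an adjusted p of 0.0295. The call was lost when any 1 of these arrays was left out: control replicates 1, 2 and 3, luteolin replicates 2 and 3, and LPS replicates 2 and 3, with adjusted p values from 0.0582 to 0.0919. A second, dim probe set of Ddit3 with a mean signal of 96.8 had a log2 fold change of -0.37, and with the mean of both probe sets the value was -1.43 (adjusted p = 0.0645).

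Nupr1, a small nuclear protein induced by many stresses, followed the same course. Its signals were 1534, 1199 and 1254 in control and 780, 410 and 419 in luteolin-treated microglia. They were 3789, 3098 and 3641 with LPS and 1298, 322 and 1103 with luteolin + LPS. No luteolin array overlapped with the arrays of the same state without luteolin. The mean log2 fold change was -1.77 (standard error 0.31, adjusted p = 0.0188, 0.00546 with the replicate block), and it was below 0 within all 3 replicate numbers, at -1.26, -2.41 and -1.65. The other probe set of the gene gave -1.79. The adjusted p was 0.0511 without luteolin replicate 2 and 0.0623 without luteolin replicate 3.

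Trib3 is a pseudokinase that binds ATF4 and CHOP and dampens their activity. It had signals of 2774, 2882 and 3066 in control and of 1677, 962 and 863 with luteolin. With LPS the signals were 2283, 2537 and 3329, and with luteolin + LPS they were 1921, 672 and 2288. The luteolin arrays did not overlap with control, whereas in the LPS-treated state array 3 with luteolin lay just above array 1 without it. Its mean log2 fold change was -1.14 (standard error 0.28, adjusted p = 0.0568, and 0.0269 with the replicate block). The other probe set gave -1.17.

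Ppp1r15a (GADD34), the phosphatase subunit that ends the response, had signals of 748, 905 and 978 in control and of 869, 446 and 462 with luteolin. It had 2053, 1541 and 1799 with LPS and 1162, 602 and 1237 with luteolin + LPS. In resting cells, array 1 with luteolin lay above array 1 without it, and replicate numbers 2 and 3 had log2 differences of -1.02 and -1.08. The mean log2 fold change over both states was -0.77 (standard error 0.22, adjusted p = 0.0837, and 0.0324 with the replicate block).

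**Figure D1:**
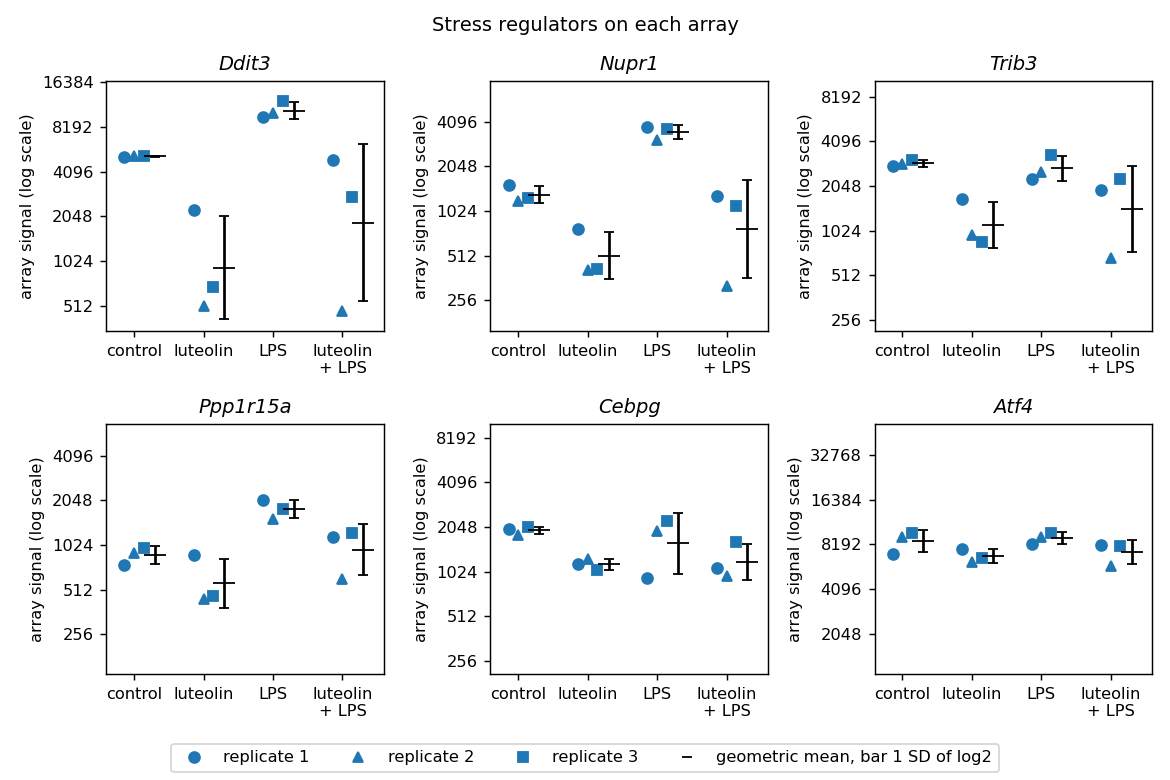
Array signals of 6 stress regulators in control, luteolin, LPS and luteolin + LPS microglia, on a log scale of the same fold range in every panel, with symbols for replicates 1, 2 and 3 and a dash with bars for the geometric mean and 1 SD of the log2 values (n = 3). Ddit3 and Nupr1 lie lower with luteolin in both states without overlap, Ddit3 at 5166 to 5253 in control and 511 to 2278 with luteolin. Atf4 runs from 5854 to 9822 over the 12 arrays, and its luteolin + LPS arrays lie below its LPS arrays.

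Of the 6 other transcription factors and the sensor kinase, none passed the test in this contrast, with or without the replicate block. Atf4 itself had signals of 7086, 9169 and 9822 in control and of 7675, 6237 and 6581 with luteolin. It had 8179, 9200 and 9818 with LPS and 8141, 5854 and 7966 with luteolin + LPS. In replicate number 1 the Atf4 signals with and without luteolin were near each other, with a log2 difference of 0.05 averaged over the states, while numbers 2 and 3 had -0.60 and -0.44. Its log2 fold change was -0.33 (95% interval -0.59 to -0.07, adjusted p = 0.158). Atf4 was called lower with array weights, at -0.42 (adjusted p = 0.00931). It was also called lower without the 4 arrays of number 1, a setting chosen after the data were seen, at -0.52 (0.0322).

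Cebpg, a dimer partner of ATF4, had a mean luteolin effect of -0.59 on the log2 scale (standard error 0.21, adjusted p = 0.150). Its signals were 1977, 1823 and 2036 in control, 1154, 1247 and 1048 with luteolin, 927, 1923 and 2268 with LPS and 1093, 958 and 1620 with luteolin + LPS. LPS array 1 had the lowest of the 12 signals, and without it the log2 fold change was -0.78 (adjusted p = 0.0170). A second probe set of Cebpg with a mean signal of 326 had a log2 fold change of -0.84, and with the mean of the gene's probe sets the adjusted p was 0.0185. Jdp2, a repressor that binds the same DNA elements as ATF3, had -0.33, and Cebpb, a partner of CHOP and a factor of inflammation, had 0.12. Atf3, a stress-induced repressor, had 0.05, and the sensor kinase Eif2ak3 (PERK), which detects unfolded proteins in the endoplasmic reticulum, had -0.01. Atf5, which like ATF4 is controlled through translation, had the highest value among the members, 0.43 (standard error 0.22, adjusted p = 0.307).

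The DNA element that ATF4 binds together with C/EBP factors, the C/EBP-ATF response element, was searched as TGATGNAAN on both strands in the RefSeq promoter windows of the members, which run from 250 bases before to 50 bases after the start site (GRCm38.p6). It was present in 9 of the 32 members with a window, or 28.1%, and in 4.5% of all 27025 genes with a window. ATF4 targets were chosen for the list, so this share describes the choice. The 9 were Atf3, Jdp2, Nupr1, Trib3, Chac1, Asns, Pycr1, Slc1a4 and Vldlr. The windows of Ddit3, Ppp1r15a, Cebpg and Atf4 held no match, which says only that these letters are not in them. The 250 bases before the start sites of Nupr1, which fell with luteolin, and of Atf3 and Asns, which did not pass the test, are shown 5′ to 3′ on the strand of the gene, with 30 bases around the match of Trib3, which begins 13 bases after the start site. Capitals mark the element, which reads on the opposite strand in Nupr1, Atf3 and Trib3.
Nupr1, chr7:126625471-126625720, minus strand: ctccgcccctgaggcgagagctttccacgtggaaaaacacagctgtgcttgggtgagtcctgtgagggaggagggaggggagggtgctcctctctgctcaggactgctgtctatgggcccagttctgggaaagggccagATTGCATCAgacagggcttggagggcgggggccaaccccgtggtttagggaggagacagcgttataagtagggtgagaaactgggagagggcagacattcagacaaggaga
Atf3, chr1:191183334-191183583, minus strand: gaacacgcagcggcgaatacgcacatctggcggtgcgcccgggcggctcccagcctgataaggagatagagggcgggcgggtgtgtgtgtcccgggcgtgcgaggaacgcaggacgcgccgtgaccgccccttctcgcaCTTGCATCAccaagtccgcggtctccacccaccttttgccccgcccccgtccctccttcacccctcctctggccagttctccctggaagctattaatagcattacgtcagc
Asns, chr6:7693210-7693459, minus strand: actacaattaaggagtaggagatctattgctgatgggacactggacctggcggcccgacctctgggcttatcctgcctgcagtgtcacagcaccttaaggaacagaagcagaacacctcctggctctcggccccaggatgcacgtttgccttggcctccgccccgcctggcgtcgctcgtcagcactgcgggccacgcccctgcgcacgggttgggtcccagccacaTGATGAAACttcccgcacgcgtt
Trib3, chr2:152344028-152344057, minus strand: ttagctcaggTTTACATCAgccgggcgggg

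Asns, asparagine synthetase, is a textbook target of ATF4 through such an element. In Nupr1 and in Atf3 the element lay 103 to 111 bases before the start site, and in Asns 15 to 23 bases before it. The mean log2 fold change with luteolin of these 3 genes was -1.77 for Nupr1, 0.05 for Atf3 and -0.06 for Asns.

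The genes of amino acid synthesis and uptake made up 15 of the members tested, and none of them passed the test for the mean luteolin effect with or without the replicate block. Their log2 fold changes ran from -0.27 for Mthfd2 to 0.22 for Shmt2. The 95% intervals of all 15 lay within 1 log2 unit on either side of 0, and those of 10 of the 15 within 0.5. The lowest bound was -0.66 and the highest 0.63.

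Asns had signals of 5190, 4197 and 4567 in control, 4593, 3606 and 3753 with luteolin, 4415, 3682 and 4425 with LPS and 5195, 3547 and 4970 with luteolin + LPS. Its mean log2 fold change with luteolin was -0.06 (95% interval -0.32 to 0.21). Array 2 was the lowest of every condition. Phgdh, the first enzyme of serine synthesis from glycolysis, had signals of 8477, 6557 and 7843 in control, 7062, 6957 and 7258 with luteolin, 7075, 5287 and 5790 with LPS and 8235, 7451 and 8739 with luteolin + LPS. The mean log2 fold change was 0.17 (95% interval -0.04 to 0.38). Psat1 and Psph, which carry out the following steps to serine, had 0.10 and -0.18. Shmt2, which turns serine into glycine in mitochondria, had 0.22, and Mthfd2, the mitochondrial folate enzyme next to it, had -0.27.

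Aldh18a1, which starts proline synthesis from glutamate, had a mean log2 fold change of -0.21, and Gpt2, which makes alanine, had 0.17. Among the 7 transporters the range was -0.15 to 0.08. Slc3a2 (CD98), the heavy chain that brings amino acid exchangers to the cell surface, had 0.08, and its partner Slc7a5 (LAT1), which imports leucine, had 0.06. Slc7a1, the arginine transporter, had -0.02, Slc38a2 (SNAT2), a sodium-coupled carrier of small neutral amino acids, had 0.08, and Slc6a9, the glycine transporter, had 0.03. Slc1a4 and Slc1a5 (ASCT2), exchangers of neutral amino acids such as serine and glutamine, had -0.15 and -0.02.

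The other regulators of translation and growth did not pass the test either. Xpot, which exports tRNA from the nucleus, had -0.27, although 2 of its other probe sets had 0.14 and 0.15. Eif4ebp1, which blocks cap-dependent translation when mTORC1 is off, had 0.29. Sesn2 and Ddit4 (REDD1), stress-induced inhibitors of mTORC1, had 0.14 and -0.37, and the interval of Ddit4 ran from -1.33 to 0.60. Cth, which makes cysteine, had 0.15 with an interval from -0.70 to 0.99, and Stc2, a secreted glycoprotein, had -0.16. Weighting arrays by their quality, which gave the 4 arrays of number 1 weights of 0.21 to 0.55 and luteolin + LPS array 2 one of 0.46, called 7 members lower and 1 higher, against 9.39% and 5.24% of all genes. Phgdh was the one called higher.

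**Figure D2:**
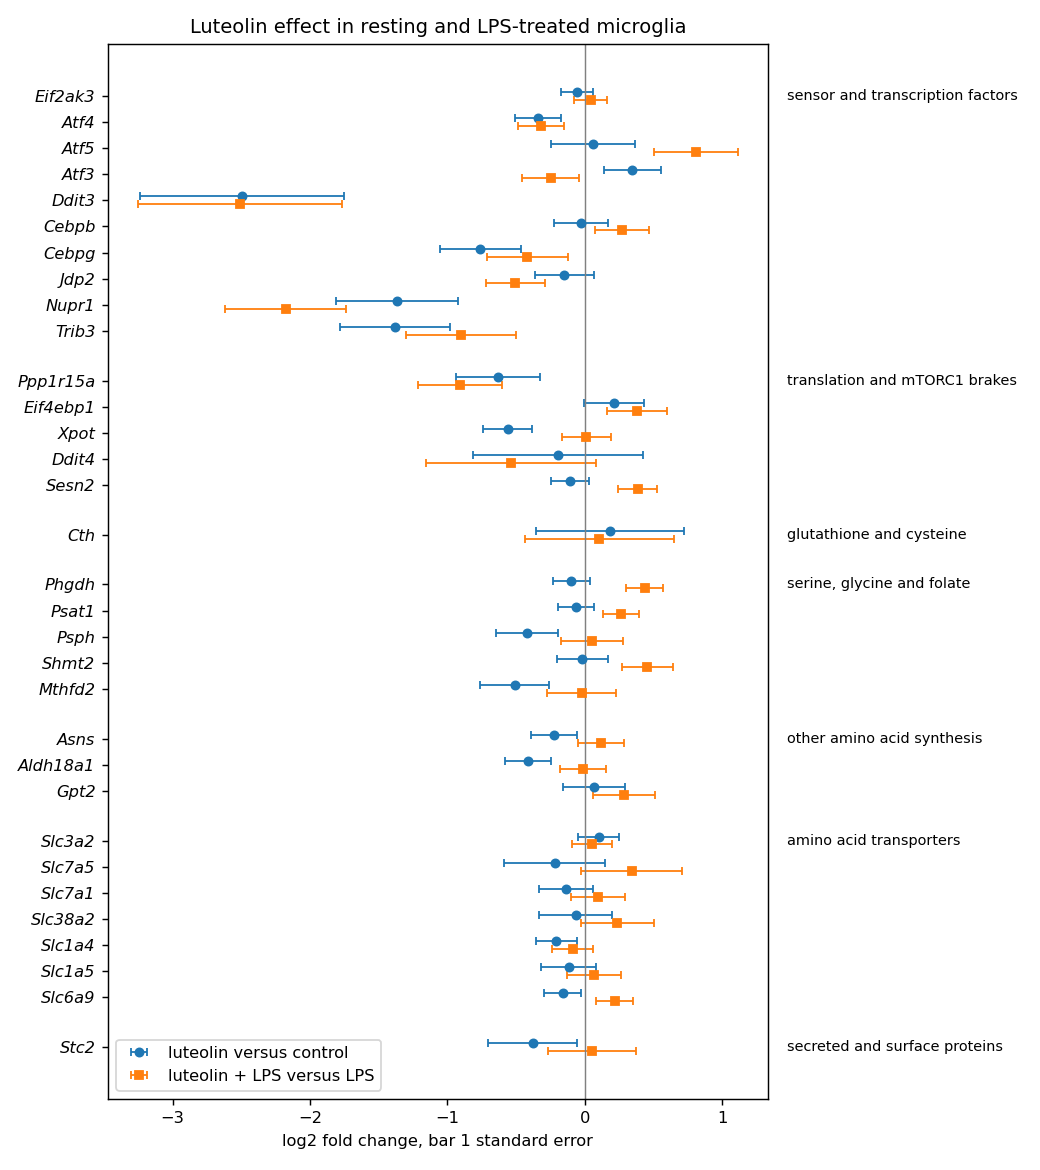
Log2 fold changes of the 32 members tested for luteolin versus control (circles) and luteolin + LPS versus LPS (squares), with bars of 1 standard error, ordered by role. Ddit3, Nupr1, Trib3, Ppp1r15a and Cebpg lie below 0 in both states, Ddit3 at -2.49 and -2.51 (the second is -1.52 without luteolin + LPS replicate 2), and the enzymes and transporters lie between -0.51 and 0.46. Without that array Trib3 has -0.36 in luteolin + LPS versus LPS.

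Within each state Ddit3 had the lowest log2 fold change of the members, though it did not pass the test in either, with or without the replicate block. In resting microglia, luteolin versus control called no gene of the 12071 (0%) and 34 with the replicate block (0.282%), and none of these was a member. At an unadjusted p under 0.05 there were 6 members, Ddit3, Nupr1, Trib3, Cebpg, Xpot and Aldh18a1, against 9.09% of all genes, and with array weights 8 members were called lower, against 5.19%. The 3 luteolin arrays lay below the 3 control arrays for 7 members (background 11.3%), which were these 6 and Psph, and above them for 2 (background 8.29%), Atf3 and Slc3a2. The log2 fold change was -2.49 for Ddit3 (standard error 0.74), -1.38 for Trib3 (0.40), -1.37 for Nupr1 (0.44), -0.76 for Cebpg (0.29) and -0.56 for Xpot (0.18), with adjusted p values from 0.303 to 0.458. Of the 32 members 26 had a value below 0, with a median of -0.15, and the median of all genes was -0.01.

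In LPS-treated microglia, luteolin + LPS versus LPS called 0 members, against 0.505% of all genes, and 9 members at an unadjusted p under 0.05, against 14.9%. With the replicate block 1 member fell, Nupr1, against 2.84% of all genes. Its log2 fold change was -2.18 (standard error 0.44, adjusted p = 0.0553, 0.0154 with the replicate block), which is 4.52-fold, and it was -1.55 without luteolin + LPS replicate 2. Ddit3 had -2.51 (standard error 0.74, adjusted p = 0.145, 0.0508 with the block) and Ppp1r15a -0.91 (standard error 0.31, adjusted p = 0.196). Without luteolin + LPS replicate 2 these were -1.52 and -0.57, and Trib3 had -0.36 (adjusted p = 0.731). The luteolin + LPS arrays lay below the LPS arrays for 4 members, Ddit3, Nupr1, Ppp1r15a and Atf4, and above them for 4, Atf5, Sesn2, Phgdh and Shmt2 (background 8.04% each way).

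Of the 4 members above LPS, Phgdh and Shmt2 are genes of serine and glycine synthesis. The 5 members of serine, glycine and folate metabolism ran from -0.02 to 0.46 in this comparison. Atf5 had signals of 221, 233 and 252 with LPS and of 573, 315 and 385 with luteolin + LPS. The difference was 0.81 on the log2 scale (standard error 0.30, adjusted p = 0.250). Phgdh had 0.44 (standard error 0.14, adjusted p = 0.164, 0.0526 with the replicate block), Shmt2 0.46 (0.19, 0.282) and Sesn2 0.39 (0.14, 0.232). None of them passed the test, though with array weights Phgdh was called higher, at 0.58 (adjusted p = 0.0449).

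Whether luteolin acted differently in the 2 states was tested as an interaction. No gene passed, with or without the replicate block (0% of 12071 genes in both), and 3 members, Phgdh, Sesn2 and Xpot, had an unadjusted p under 0.05, against 3.15% of all genes. The differences ran from -0.81 for Nupr1 to 0.75 for Atf5 on the log2 scale. That of Nupr1 was -0.18 without luteolin + LPS replicate 2 and -0.51 without luteolin replicate 1, and that of Atf5 was 1.14 without luteolin replicate 1. They were above 0 for 24 of the 32 members, or 75%, and for 56% of all genes, with medians of 0.30 and 0.03. All 5 genes of serine, glycine and folate metabolism were above 0, at 0.33 to 0.53. This was not particular to them. The 3 genes of other amino acid synthesis had 0.22 to 0.40, and 6 of 7 transporters were above 0. Outside the list, 17 of 19 enzymes that charge tRNA and 12 of 14 other enzymes of amino acids and folate were above 0. Of the transcription factors and the sensor kinase, 6 of 10 were. For Ddit3 the difference was -0.01, with a 95% interval from -2.33 to 2.30, and it was 0.97 without luteolin + LPS replicate 2.

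**Figure D3:**
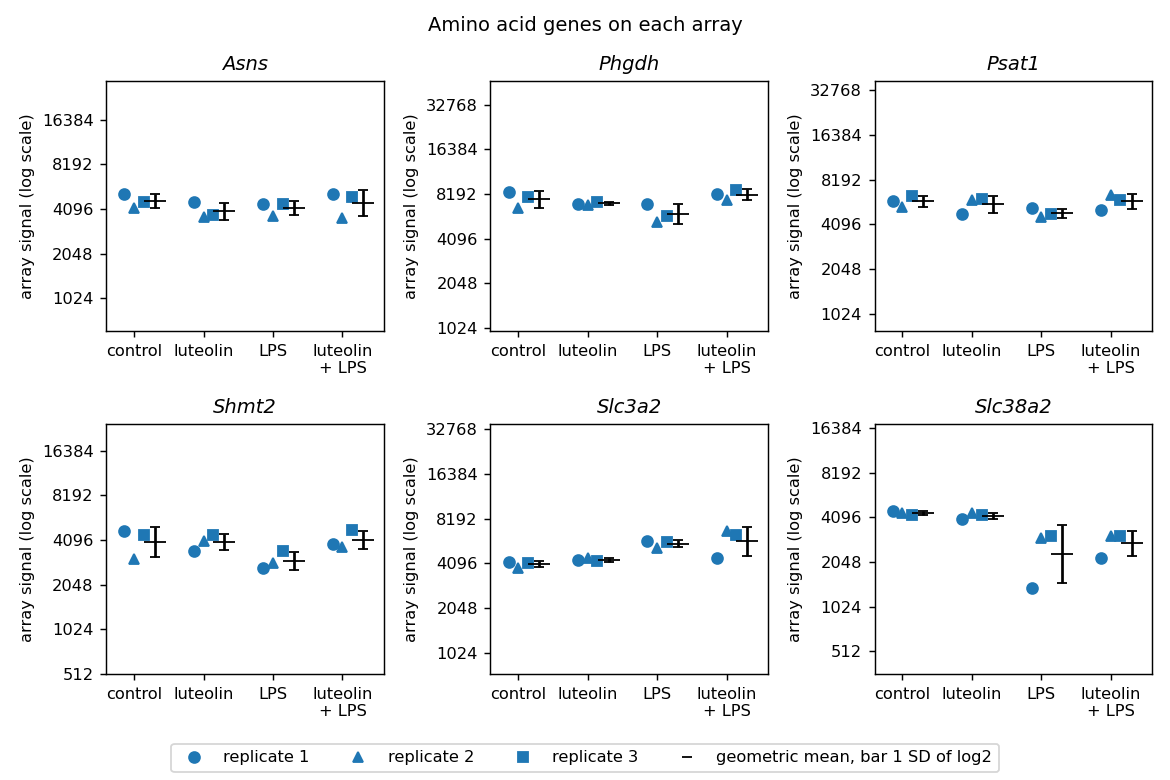
Array signals of 6 amino acid genes in the 4 conditions, drawn on the same fold range as the stress regulators, with symbols for replicates 1, 2 and 3 and a dash with bars for the geometric mean and 1 SD of the log2 values (n = 3). Asns stays between 3547 and 5195 on all arrays, Phgdh has its lowest mean with LPS, at 5287 to 7075, and Slc38a2 has 1370 to 3038 on the LPS arrays against 4249 to 4524 on the control arrays.

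With LPS alone, Atf3 rose, and with the replicate block 3 further regulators rose. With the block a transporter and the sensor kinase fell, a share no higher than that among all genes. Without a block, LPS versus control called 1 member higher and 0 lower, against 1.96% and 2.22% of all genes. That member was Atf3, with signals of 2283, 2559 and 2753 in control and of 5769, 4466 and 5687 with LPS. It rose by 1.06 on the log2 scale (standard error 0.21, adjusted p = 0.0188, 0.00605 with the replicate block). The call was lost without control replicate 1, 2 or 3 or LPS replicate 1 or 3, with adjusted p values from 0.0524 to 0.0787. With the replicate block 4 members rose, against 4.3% of all genes, and 2 fell, against 6.78%. Those that rose were Atf3, Cebpb, Nupr1 and Ppp1r15a, and those that fell were Eif2ak3 and Slc38a2.

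Nupr1 and Ppp1r15a, which passed the test with the block in both contrasts, had log2 fold changes with LPS of 1.40 (standard error 0.44, adjusted p = 0.105, 0.0295 with the replicate block) and 1.03 (0.31, 0.0868 and 0.0363). Cebpb had signals of 2868, 4244 and 4107 in control and of 4563, 7080 and 6394 with LPS, and its log2 fold change was 0.68 (standard error 0.20, adjusted p = 0.0833, 0.0449 with the replicate block). Ddit3 had 1.02 with a standard error of 0.74 (adjusted p = 0.467, 0.303 with the block), in a fit that takes the spread from all 12 arrays. A fit of the 6 control and LPS arrays alone gave an adjusted p of 0.0138 for Ddit3, and it called 4 members higher, against 1.79% of all genes.

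Slc38a2 had signals of 4524, 4390 and 4249 in control and of 1370, 2981 and 3038 with LPS, and array 1 was the lowest. Its log2 fold change was -0.92 (standard error 0.26, adjusted p = 0.0792, 0.0283 with the replicate block). Without LPS replicate 1 it was -0.54 (adjusted p = 0.0907), and without the 4 arrays of number 1, a setting chosen after the data were seen, -0.52 (0.0311). A second probe set with a mean signal of 788 had -0.04. Eif2ak3 had 399, 380 and 350 in control and 260, 309 and 262 with LPS. The difference was -0.45 on the log2 scale (standard error 0.12, adjusted p = 0.0616, 0.0303 with the replicate block). Over 23 alternatives that of Eif2ak3 ran from -0.53 to -0.28, with a call in 4 of them. The LPS arrays lay above the control arrays for 8 members (background 11.5%), among them Slc3a2 with 0.46 and Slc6a9 with 0.25. They lay below them for 7 (background 16.1%), among them Xpot with -0.47, Psat1 with -0.27 and Aldh18a1 with -0.35. Cth had a log2 fold change of 1.13 with a standard error of 0.54 and control signals of 692, 246 and 193, of which array 1 was the highest.

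**Figure D4:**
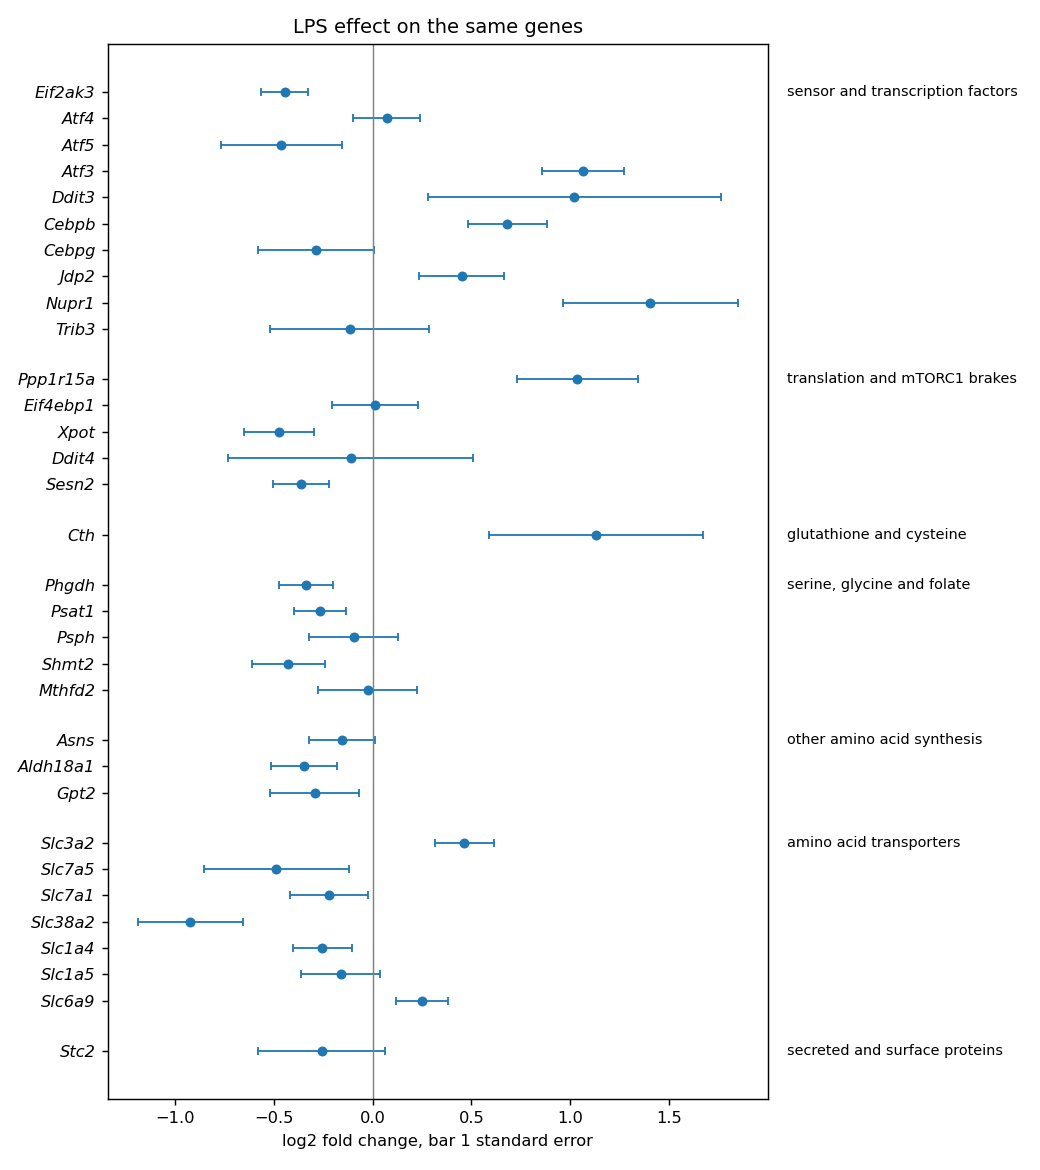
Log2 fold changes of the 32 members for LPS versus control with bars of 1 standard error, ordered by role. Nupr1, Cth, Atf3, Ppp1r15a and Ddit3 lie at 1.02 to 1.40, and Slc38a2 lies lowest at -0.92.

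The luteolin and LPS effects set side by side use the control and LPS arrays in common. With this shared use, Ddit3, Nupr1 and Ppp1r15a had mean signals in the order LPS, control, luteolin from high to low, at 10584, 5218 and 926 for Ddit3, at 3496, 1321 and 512 for Nupr1 and at 1786, 871 and 564 for Ppp1r15a. Luteolin + LPS gave 1859, 773 and 953. For Ddit3 and Nupr1 the luteolin + LPS mean was below that of control, though array 1 of Nupr1, at 1298, lay within the control range.

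**Figure D5:**
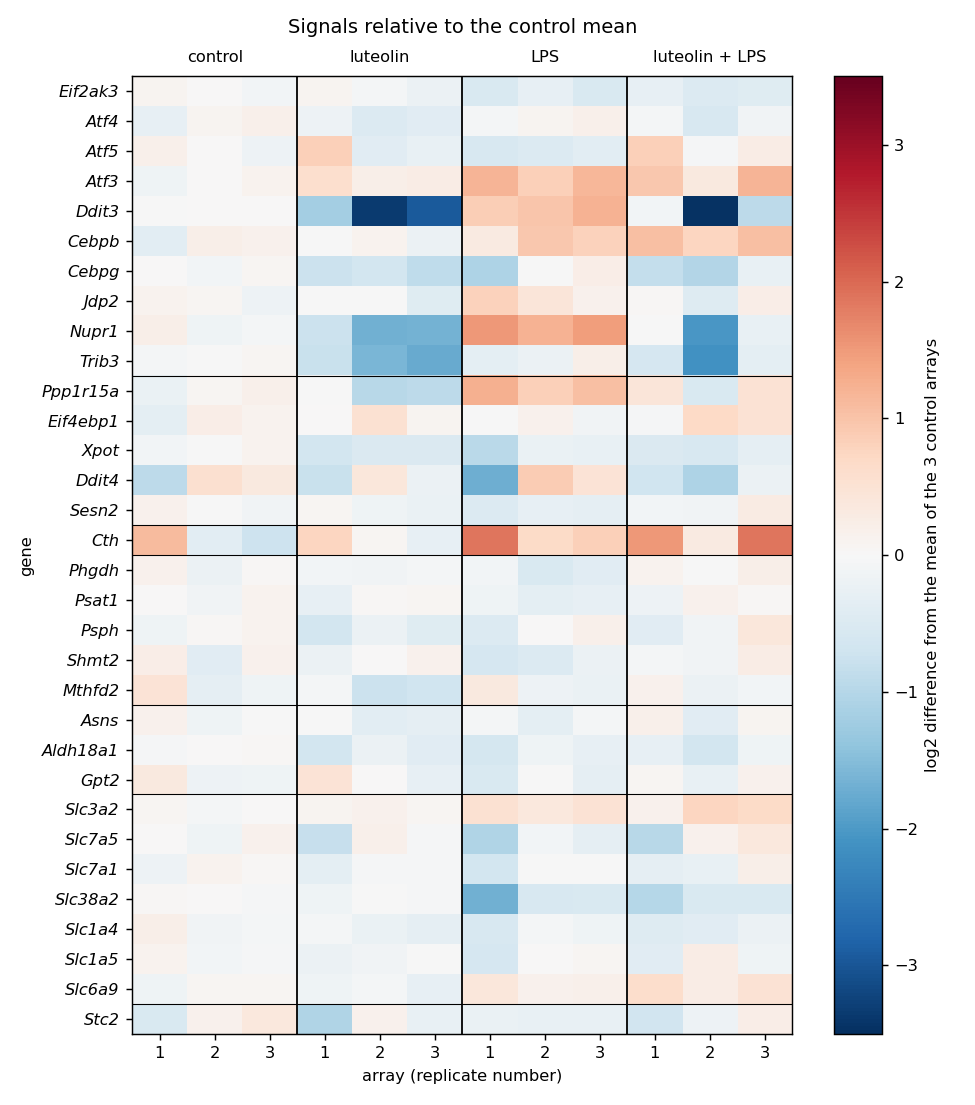
Log2 difference of each array from the mean of the 3 control arrays for the 32 members tested (rows) on the 12 arrays (columns, by condition and replicate number), from blue (lower) to red (higher). The values run from -3.46 to 1.88, the lowest being Ddit3 on luteolin + LPS array 2, and array 1 of both luteolin conditions is paler than arrays 2 and 3 for Ddit3 and Nupr1.

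Among other genes of the pathway, grouped by role, the enzymes that charge tRNA had the most calls with luteolin. Some of the cytosolic aminoacyl-tRNA synthetases are ATF4 targets. Of 19 tested, 3 fell in the mean luteolin effect and none rose, against 1.92% lower and 1.16% higher among all genes. These were Aars (alanine; log2 fold change -0.62, standard error 0.11, adjusted p = 0.0190), Wars (tryptophan; -0.60, 0.13, 0.0343) and Yars (tyrosine; -0.42, 0.08, 0.0257). With the replicate block 4 fell, against 6.22%. The median of the 19 was -0.17. Aars had signals of 5232, 5976 and 5540 in control, 3488, 3611 and 3220 with luteolin, 5490, 7382 and 6485 with LPS and 4343, 3586 and 5360 with luteolin + LPS, with no overlap in either state. The adjusted p of Aars was 0.0530 without control replicate 2 and 0.0636 without luteolin replicate 3, and that of Wars was 0.0503 to 0.0940 without any 1 array other than control replicate 1, LPS replicate 1 or luteolin + LPS replicate 3. That of Yars was 0.0534 to 0.0817 without control replicate 2 or 3, luteolin replicate 1 or 3, LPS replicate 2 or 3, or luteolin + LPS replicate 2.

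Of 18 other amino acid transporters, 1 rose in the mean luteolin effect, against 1.16% of all genes. This was Slc36a1, a lysosomal exporter of small amino acids (log2 fold change 0.42, standard error 0.09, adjusted p = 0.0425, 0.0236 with the replicate block). Its call was lost without any 1 array other than LPS replicate 1, with adjusted p values from 0.0558 to 0.107, and also with a trend in the variance prior (0.0526) and with arrays centred on their median (0.0628). With LPS, Slc7a11 (xCT), the cystine importer for glutathione synthesis, rose by 2.95 on the log2 scale (standard error 0.58, adjusted p = 0.0195), against a background of 1.96% higher. Its signals were 106, 43.0 and 56.6 in control and 1519, 262 and 299 with LPS, so LPS array 1 was the highest. The call was lost in the fit of control and LPS arrays alone (adjusted p = 0.0983) and without control replicate 2 or 3 (0.0759 and 0.0755).

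Of the 10 genes for eIF2 kinases, eIF2 and its exchange factor eIF2B, none passed without the block, and with it Eif2ak4 (GCN2), the kinase that senses uncharged tRNA, fell with LPS by 0.76 on the log2 scale (adjusted p = 0.0386 with the replicate block). Over 23 alternatives the log2 fold change of Eif2ak4 ran from -0.88 to -0.26, with a call in 3 of them. Of 14 other enzymes of amino acids and folate, Bcat2, which breaks down branched-chain amino acids in mitochondria, fell with LPS by 0.61 with the block (adjusted p = 0.0324). The background for both was 6.78%. Of 6 other CHOP and ATF4 targets, Ero1a, Atg12 and Sqstm1 rose with LPS with the block, against 4.3% of all genes. These are an oxidase of the endoplasmic reticulum and 2 autophagy genes, and their log2 fold changes were 0.91, 0.87 and 0.84. That of Ero1a was 0.50 without control replicate 1. With the block, Nfil3, a transcriptional repressor, fell by 0.59 in the mean luteolin effect, against 6.22%, and Atg12 fell by 0.57 in luteolin + LPS versus LPS, against 2.84%. Without LPS replicate 1 the value of Atg12 was -0.30. With the number as a random block Nfil3 (adjusted p = 0.0634), Atg12 in luteolin + LPS versus LPS (0.0985) and Ero1a with LPS (0.0578) did not pass the test. The ATF6 and XBP1 arms of the unfolded protein response, which run beside the PERK arm that feeds ATF4, had 0 of 21 genes called in any comparison with or without the block, and their median in the mean luteolin effect was 0.13.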

How the data were processed

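Gene expression of BV-2 microglia was measured on 12 Affymetrix mouse arrays, 3 for each of 4 conditions. The deposited values are linear intensities per probe set, which the authors summarized and normalized by RMA per the labels, with 1 column for each array. Of 45101 probe sets, 34958 were assigned to 1 gene by GEO's platform annotation. Log2 intensities were analysed here, with the probe set of the highest mean for each gene. Genes with a geometric mean of at least 50 in 1 or more conditions were kept, as in the authors' signal minimum. Contrasts of 4 group means over the 12 arrays were tested with limma 3.58.1 (R 4.3.3, eBayes, Benjamini-Hochberg, 0.05). The single-probe SAM test of the methods was not run. Arrays of the same number deviated together from their group means (r of 0.10 to 0.59 in 18 pairs, median 0.42), so the number was also fitted as a block. The median between numbers, -0.29, is no separate baseline, since the deviations within a group sum to 0. The script was tested on simulated data. Genes named outside the list were, per role and contrast, up to 3 with the largest change among those called, or else among those called with the block. The members and lists were chosen with earlier results of these data known. The number of arrays limits the precision. Alternatives are described at the end.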

Additional observations from a re-analysis of the deposited data

Results flagged for a closer look

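For 2 members, all 3 replicate numbers had luteolin differences on one side of 0 in resting microglia and on the other side in LPS-treated microglia. For Sesn2 the log2 differences were -0.08, -0.13 and -0.11 in resting and 0.40, 0.16 and 0.60 in LPS-treated microglia, and the interaction was 0.49 (standard error 0.20, adjusted p = 0.999). For Slc38a2 the interaction was 0.30 (standard error 0.37, adjusted p = 0.999), with differences of -0.19, -0.01 and -0.00 in resting and of 0.67, 0.03 and 0.01 in LPS-treated microglia, those of number 1 being the largest in size in both. Neither interaction passed the test.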

How the results depend on the processing

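No called value changed its sign, and no value of opposite sign was called. Of the values of single genes, those of the mean luteolin effect lost a call in 41 of 814 alternatives and gained one in 19, and those of LPS versus control lost one in 16 of 966 and gained one in 43. The count of members called in the mean luteolin effect was 4 with the replicate block and with the random replicate block and 8 with array weights, and it ran from 0 to 4 when 1 array was left out. It was 0 without luteolin replicate 2 or 3, 1 without control replicate 1, 2 or 3 or LPS replicate 2 or 3, and 4 without LPS replicate 1. The median of the members in this contrast ran from -0.115, without LPS replicate 1, to 0.0019, without luteolin + LPS replicate 2. In luteolin versus control the count was 8 with array weights. In luteolin + LPS versus LPS it was 1 with either block, 2 with array weights, 1 with a pseudocount of 50, and 0 to 1 when 1 array was left out. In LPS versus control it was 4 in the fit of the groups compared, 6 with either block, 10 with array weights, 2 with a pseudocount of 50, and 0 to 3 when 1 array was left out. It was 0 without control replicate 1, 2 or 3 or LPS replicate 3.

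Chosen after the data were seen, leaving out the 4 arrays of number 1 gave 7 members called in the mean luteolin effect with a median of -0.070, and 2 in luteolin + LPS versus LPS. The replicate block without luteolin + LPS array 2 called 3 members in luteolin versus control, Ddit3, Nupr1 and Trib3, with 1 in luteolin + LPS versus LPS and 7 in LPS versus control. In the mean luteolin effect this setting kept the call of Trib3 (adjusted p = 0.0295), while Ppp1r15a did not pass the test. Why these settings moved the counts was not tested. The block changed the other calls named in the report only where its value is given there. The fit of only the groups compared is not defined for the mean effect and the interaction.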
